A study of Rattus norvegicus with 11 samples.

Results

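Postn, Bgn, Timp2, Mmp2, Col1a1, Prrx1 and Twist2 are 7 genes that fibroblasts express, and they were followed here as a possible trace of the mouse feeder cells on which rat embryonic stem cells can be grown. They were listed by name, with results of these data known, and each matched 1 row of the table. Thus 7 of the 14506 genes measured are described. The quantity of interest was the difference between cultures started on feeder cells and cultures started without them, on each sampled day. The name under which the genes were grouped, fibroblast genes that fade in the feeder arm, was checked against the values. It held for Postn, Bgn, Mmp2, Col1a1 and Prrx1, and did not hold for Timp2. For Twist2 a shrinking difference was called only after day 17, and some other settings of the fit lost that call.

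The study converted rat embryonic stem cells (rESCs) of the line DAc2 into hypoblast stem cells, called cHypoSCs, and measured total RNA on 11 Affymetrix Rat Gene 1.0 ST arrays. All groups share this 1 line. The rESCs of both arms had grown in N2B27 medium with CHIR99021, a GSK3 inhibitor, at 3 µM. In the feeder arm they lay on mouse embryonic fibroblasts, and PD0325901, a MEK inhibitor, was at 0.5 µM. In the feeder-free arm they lay on laminin, PD0325901 was at 2 µM, and human BMP4 was added at 5 ng/mL. The arms thus differed in these agents as well as in the feeder cells. Both arms were then moved to a progenitor medium with LIF, EGF, PDGF and 2% serum, and cells were taken at days 0, 7, 17 and 32. Day 0 is held by 1 feeder-free array and each later day by 2, whereas each feeder day is a single array with no spread of its own. Whether the 2 arrays of a pair, labelled as biological replicates, come from separate cultures is not stated, and the p-values measure only the spread between such arrays, which may be technical. The labels do not say whether fibroblasts were still present, or had been removed, after day 0.

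Fibroblasts build the connective tissue matrix. Type I collagen forms its fibres, small proteoglycans and matricellular proteins such as biglycan and periostin attach to these fibres, and metalloproteinases with their inhibitors remodel them. The transcription factors Prrx1 and Twist2 mark mesenchyme of the embryo. Mouse embryonic fibroblasts have long served as feeder layers that keep stem cells undifferentiated, and RNA taken from such a culture can hold transcripts of both cell kinds. The arrays carry rat probes, so a mouse transcript is read only as far as it matches them. In these values mouse RNA and rat RNA of the same gene cannot be told apart, nor can fewer fibroblasts be told apart from less RNA per fibroblast.

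The RefSeq table of the rat build GRCr8 held promoters for 4 of the 7 genes, Postn, Timp2, Prrx1 and Twist2. The 250 bases before the start of 3 of them are shown because these genes followed the 3 most different courses. Postn had lost most of its excess by day 7, Timp2 rose in the feeder-free arm, and Twist2 stayed high longest. They are rat sequences, whereas the feeder cells are from mouse. Capital letters mark matches, on either strand, to the E box CANNTG, which proteins of the Twist family bind, to the TATA box as TATAAA, to the CAAT box as CCAAT, and to a homeodomain core, here TAATTA. No matches overlapped in these promoters.
Postn, chr2:140677811-140678060, + strand: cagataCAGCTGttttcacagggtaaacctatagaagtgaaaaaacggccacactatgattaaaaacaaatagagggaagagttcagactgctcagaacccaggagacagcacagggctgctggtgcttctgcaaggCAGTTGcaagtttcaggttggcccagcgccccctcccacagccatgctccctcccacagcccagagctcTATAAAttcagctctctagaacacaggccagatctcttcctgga
Timp2, chr10:104089215-104089464, - strand: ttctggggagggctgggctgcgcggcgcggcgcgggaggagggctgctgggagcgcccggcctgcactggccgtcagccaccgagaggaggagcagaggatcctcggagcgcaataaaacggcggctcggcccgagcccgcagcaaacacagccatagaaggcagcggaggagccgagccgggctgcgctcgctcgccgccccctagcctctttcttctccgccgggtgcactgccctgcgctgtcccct
Twist2, chr9:99821992-99822241, + strand: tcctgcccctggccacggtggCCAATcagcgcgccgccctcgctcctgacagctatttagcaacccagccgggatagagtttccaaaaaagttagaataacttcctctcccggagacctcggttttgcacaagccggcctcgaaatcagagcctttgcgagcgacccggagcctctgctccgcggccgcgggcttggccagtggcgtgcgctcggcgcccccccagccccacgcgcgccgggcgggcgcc
Postn held 2 E boxes and 1 TATA box, Twist2 held 1 CAAT box and Timp2 held none of the 4 motifs. Prrx1, at chr13:78204074-78204323 on the - strand, held 1 CAAT box, read on the reverse strand. Of 33469 promoters searched in windows of the same length, 65.5% held the E box, 12.9% the TATA box, 34.0% the CAAT box and 4.86% the homeodomain core. The promoters of Timp2 and Twist2 were 72.0% and 67.2% G or C, that of Postn 50.8% and that of Prrx1 43.2%, against a mean of 52.2%. A match is a description of the letters and not a binding site.

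All values below are log2 expression values per probe set, so a difference of 1 is a factor of 2 where the array responds linearly. They can be compared between arrays for 1 gene, but not between genes. All 11 arrays shared a median of 8.97. Of 1240 genes for olfactory and vomeronasal receptors, which are mostly silent in such cells, 95% of the array values lay below 8.10, and this value served as a rough upper limit of background. The feeder-free pairs correlated at 0.997 to 0.998 across genes, with no identical value. Differences were tested in limma with 1 mean for each of the 8 groups, and p-values were adjusted over all 14506 genes. The standard errors (SE) rest on the 3 feeder-free pairs, and the single arrays are assumed to vary like them. limma drew the spread of each gene toward that of all genes, with 10.3 prior against 3 residual degrees of freedom.

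At day 0 all 7 genes were higher in the culture on feeder cells, by 1.62 to 5.60 with a median of 3.46. Over all genes the median difference was -0.06, and 31.5% were called, 14.7% higher and 16.9% lower. The 7 genes were chosen with results of these data known. Their differences on all 4 days, and the p-values beside them, are therefore descriptions. Ranked by the difference among all 14506 genes, Bgn was at place 2, Postn 3, Timp2 10, Mmp2 16, Prrx1 21, Col1a1 24 and Twist2 161. The feeder-free value of Postn (6.80) lay below the background limit and that of Bgn (8.14) about at it, so these places are not exact. At day 7 the difference was positive for 6 genes (background 20.4% called higher of 41.2% called in all) and negative for Timp2 (background 20.8% called lower). At day 17 it passed the test for Bgn, Prrx1 and Twist2, all higher (background 13.9% called higher and 13.8% lower, 27.7% in all). At day 32 it passed for none of the 7 in limma, against 25.9% of all genes called (14.3% higher and 11.6% lower), and 1 of them, Twist2, had an unadjusted p under 0.05. The median of the 7 went from 3.46 to 1.71, 0.30 and 0.06.

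**Figure D1:**
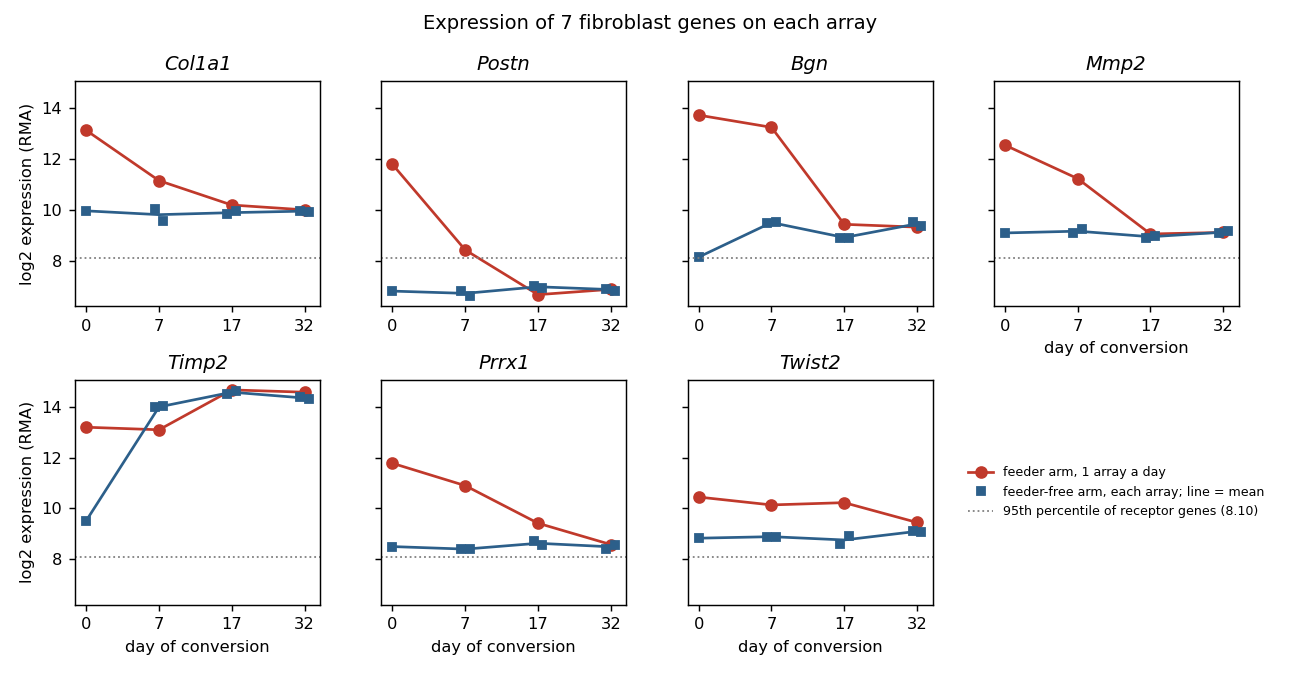
Log2 expression of the 7 genes on every array, by day of conversion (days evenly spaced). Red circles are the single feeder arrays, blue squares the feeder-free arrays with a line through their means, and the dotted line is the receptor gene limit of 8.10. At day 32 the red value of each gene lies within 0.35 of the feeder-free mean, whereas at day 0 they are 1.62 to 5.60 apart.

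Col1a1 encodes the alpha 1 chain of type I collagen, the main fibrous protein of connective tissue. In the feeder arm it read 13.13 at day 0, 11.15 at day 7, 10.19 at day 17 and, at day 32, 0.06 above the feeder-free mean of 9.95. Without feeder cells it read 9.96 at day 0, 10.04 and 9.57 at day 7, 9.84 and 9.95 at day 17, and 9.96 and 9.93 at day 32. The feeder-free values thus stayed between 9.57 and 10.04, and the feeder values came down to it. The difference was 3.17 ± 0.19 at day 0 (SE, adjusted p = 7.16e-08) and 1.34 ± 0.17 at day 7, where both feeder-free arrays lay below the feeder array. It was 0.30 ± 0.17 at day 17 and 0.06 ± 0.17 at day 32, neither of which passed.

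Postn encodes periostin, a secreted matrix protein that binds collagen. It read 11.79, 8.42, 6.66 and 6.87 in the feeder arm at the 4 days in turn. The feeder-free arrays read 6.80 at day 0, 6.82 and 6.61 at day 7, 7.02 and 6.91 at day 17, and 6.90 and 6.82 at day 32, all below the background limit of 8.10. Only the feeder arrays of days 0 and 7 lay above that limit, and by day 17 the feeder array lay below both feeder-free arrays. The difference was 4.99 ± 0.15 at day 0 (adjusted p = 1.6e-10) and 1.71 ± 0.13 at day 7 (adjusted p = 2.03e-07). It then stood at -0.31 ± 0.13 (adjusted p = 0.107) and 0.01 ± 0.13. With the feeder-free level at background, how far these differences understate the change of the transcript is not known.

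Bgn encodes biglycan, a small leucine-rich proteoglycan of the collagen matrix. In the feeder arm it read 13.73 at day 0 and still 13.25 at day 7, then 9.43 at day 17 and 9.32 at day 32. Without feeder cells it read 8.14 at day 0, 9.47 and 9.54 at day 7, 8.91 on both arrays at day 17, and 9.54 and 9.37 at day 32. The gene therefore had a changing level in the feeder-free arm too, with a rise of 1.37 ± 0.13 to day 7, a fall to day 17 (-0.60 ± 0.10) and a rise of 0.54 ± 0.10 to day 32. The last rise missed the threshold without the first feeder-free day 32 array (0.46, adjusted p = 0.0542). The difference between the arms was 5.60 ± 0.14 at day 0 (adjusted p = 3.31e-11), 3.74 ± 0.13 at day 7 and 0.52 ± 0.13 at day 17 (adjusted p = 0.00649). At day 32 it was -0.14 ± 0.13 (adjusted p = 0.493).

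Mmp2 encodes the gelatinase MMP2, which cuts denatured collagen and type IV collagen. It read 12.55, 11.23, 9.05 and 9.11 in the feeder arm. The feeder-free arrays read 9.09 at day 0, 9.08 and 9.24 at day 7, 8.89 and 8.98 at day 17, and 9.08 and 9.17 at day 32. The feeder values of days 17 and 32 lay within 0.11 of the feeder-free means. The difference was 3.46 ± 0.15 at day 0 (adjusted p = 3.66e-09), 2.07 ± 0.13 at day 7, 0.11 ± 0.13 at day 17 and -0.01 ± 0.13 at day 32.

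Timp2 encodes an inhibitor of metalloproteinases that also takes part in the activation of pro-MMP2 at the cell surface. It followed another course. In the feeder arm it read 13.20, 13.10, 14.67 and 14.58. The feeder-free arrays read 9.52 at day 0, then 13.98 and 14.02, 14.51 and 14.64, and 14.38 and 14.31. Without feeder cells it rose by 4.48 ± 0.12 to day 7 (adjusted p = 6.44e-12) and by 0.57 ± 0.10 to day 17. The difference of 3.67 ± 0.14 at day 0 became -0.90 ± 0.12 at day 7 (adjusted p = 4.22e-05), with the feeder array below both feeder-free arrays, and 0.09 ± 0.12 at day 17 and 0.24 ± 0.12 at day 32 (adjusted p = 0.193). The day 32 value passed with a further quantile normalization (adjusted p = 0.0492) and with trend and robust (0.0427). Between days 0 and 7 the feeder value itself moved by only -0.10. From day 7 onward this gene was thus higher than at day 0 in the cultures labelled feeder-free.

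Prrx1 encodes a homeodomain factor of limb and craniofacial mesenchyme. It read 11.78, 10.90, 9.42 and 8.58 in the feeder arm. Without feeder cells it read 8.50 at day 0, 8.40 on both arrays at day 7, 8.71 and 8.55 at day 17, and 8.42 and 8.55 at day 32. The feeder array was the highest on each of the 4 days, though at day 32 only just, at 8.58 against 8.55 on the higher feeder-free array. The difference was 3.27 ± 0.15 at day 0 (adjusted p = 5.28e-09), 2.50 ± 0.13 at day 7, 0.79 ± 0.13 at day 17 (adjusted p = 0.000423) and 0.09 ± 0.13 at day 32.

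Twist2, also called Dermo1, encodes a basic helix-loop-helix factor of mesenchyme and dermis. It read 10.45, 10.14, 10.23 and 9.45 in the feeder arm. Without feeder cells it read 8.83 at day 0, 8.89 and 8.88 at day 7, 8.60 and 8.91 at day 17, and 9.11 and 9.08 at day 32. The feeder values moved by -0.31 to day 7, by 0.09 to day 17 and by -0.78 to day 32, and the feeder array stood above every feeder-free array on all 4 days. The difference was 1.62 ± 0.16 at day 0 (adjusted p = 7.48e-06), 1.25 ± 0.14 at day 7, 1.48 ± 0.14 at day 17 (adjusted p = 7.95e-06) and 0.35 ± 0.14 at day 32 (adjusted p = 0.0847). The last value passed only without the dimmest 25% of genes (adjusted p = 0.037).

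**Figure D2:**
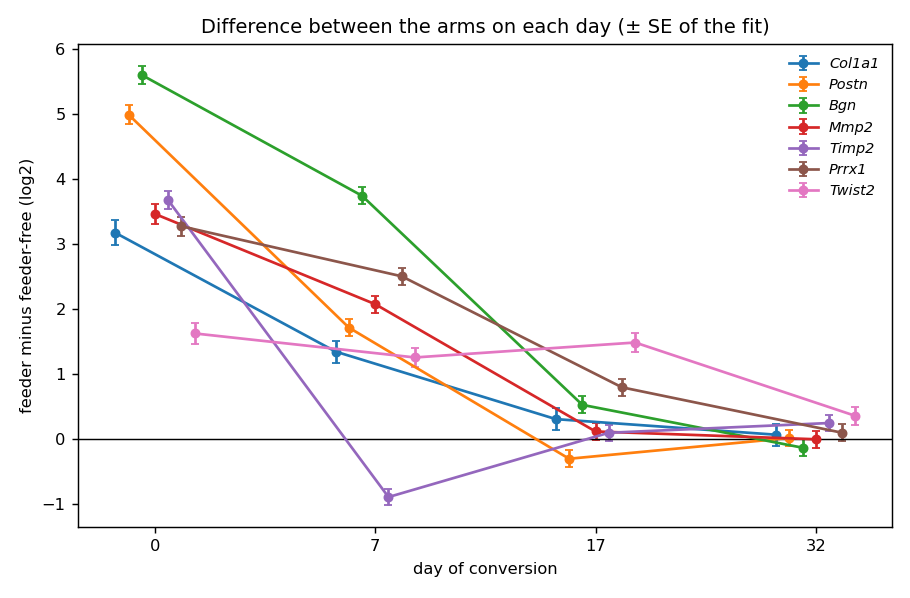
Feeder minus feeder-free difference (log2) of the 7 genes by day (days evenly spaced, points offset sideways), with the SE of the limma fit as bars. At day 0 the values run from 1.62 (Twist2) to 5.60 (Bgn); at day 7 Timp2 is below 0 at -0.90; at day 17 Twist2 is highest at 1.48.

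Whether the difference itself moved between days was tested as an interaction of culture and day. The genes were grouped with results of these data known, so the calls describe them and are no independent support. From day 0 to day 7 it became smaller for 6 of the 7 genes (background 11.2% of all genes called lower and 10.9% higher, 22.0% in all). The shift was -4.58 ± 0.19 for Timp2, -3.28 ± 0.20 for Postn, -1.85 ± 0.19 for Bgn, -1.82 ± 0.25 for Col1a1, -1.40 ± 0.20 for Mmp2 and -0.78 ± 0.20 for Prrx1 (adjusted p = 0.00997). For Twist2 it was -0.37 ± 0.21 (adjusted p = 0.277). In the same interval the feeder arrays moved by -3.36 for Postn, -1.98 for Col1a1, -1.33 for Mmp2 and -0.88 for Prrx1. Without feeder cells these 4 genes moved by -0.15 to 0.07 and did not pass, although Col1a1 passed without the first day 7 array (-0.39, adjusted p = 0.041). Bgn moved by -0.49 in the feeder arm and 1.37 without feeder cells, and Timp2 by -0.10 and 4.48. These were the 2 of the 7 genes that rose without feeder cells to day 7 (background 16.2% called higher and 20.7% lower, 36.9% in all).

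From day 7 to day 17 the difference shrank for 5 genes (background 8.97% called lower, of 19.7% called in all) and rose for Timp2 (background 10.7% called higher). Bgn lost most, with -3.22 ± 0.18 (adjusted p = 5.63e-08), followed by Postn with -2.02 ± 0.19, Mmp2 with -1.95 ± 0.18, Prrx1 with -1.70 ± 0.18 and Col1a1 with -1.05 ± 0.23 (adjusted p = 0.00531). With a further quantile normalization that of Col1a1 was -1.15 and missed the threshold (adjusted p = 0.05). Timp2 gained 1.00 ± 0.17 and Twist2 stood at 0.22 ± 0.20 (adjusted p = 0.53). Without feeder cells Timp2 rose (background 16.5% called higher, of 23.8% in all) and Bgn fell (background 7.36% called lower) over this interval. From day 17 to day 32 only the difference of Twist2 shrank, by -1.12 ± 0.20 (adjusted p = 0.0171; background 0.372% called lower and 0.310% higher, 0.682% in all). That call was lost without either feeder-free day 7 array (adjusted p = 0.0814 for both), with a further quantile normalization (0.111) and after centring on the median of the genes (0.097). Prrx1 moved by -0.70 ± 0.18 (adjusted p = 0.124) and Bgn by -0.66 ± 0.18 (adjusted p = 0.147), which passed only without the dimmest 25% of genes. Bgn was the 1 gene of the 7 called as rising without feeder cells in that interval (background 2.15% called higher and 5.17% lower, 7.32% in all). Twist2 moved by -0.78 in the feeder arm and by 0.34 ± 0.11 without feeder cells (adjusted p = 0.101). The latter passed without the dimmest 25% of genes (adjusted p = 0.033) and was 0.50 without the second day 17 array. The shrinking difference of Twist2 thus held a feeder-free rise as well as a fall on feeders.

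The share of the day 0 excess that was left differed between the genes, a difference that was not tested. Put back on a linear scale, the excess of the feeder array over the feeder-free mean at day 7 was 6.97% of its day 0 size for Postn, 17.3% for Col1a1, 33.3% for Mmp2, 49.8% for Prrx1 and 69.4% for Twist2. For Bgn, whose feeder-free level rose, it was 67.5%. Leaving out 1 feeder-free array at a time moved these day 7 shares little, with the widest range for Col1a1 (15.3% to 19.0%). At day 17 the share was 81.7% for Twist2 and 9.21% for Prrx1, against 2.73% for Col1a1, 1.57% for Bgn, 0.719% for Mmp2 and -0.698% for Postn, where a negative share means below the feeder-free mean. At day 32 Twist2 kept 16%, and Postn, Col1a1, Mmp2, Prrx1 and Bgn were below 1%, although the difference of Twist2 itself had not passed on that day. For Timp2, whose feeder-free level rose far more, the shares were -88.2% at day 7, 18.4% at day 17 and 43% at day 32. Its differences at days 17 and 32 had not passed in the main fit. Leaving out 1 feeder-free array at a time gave the widest ranges for Timp2, 5.37% to 30.8% at day 17 and 37.4% to 48.5% at day 32. It gave 76.4% to 86.5% for Twist2 at day 17, 0.196% to 1.24% for Prrx1 at day 32 and 0.429% to 1% for Mmp2 at day 17. The day 32 shares of Postn and Mmp2 changed sign in this way, from -0.0823% to 0.111% and from -0.44% to 0.244%. Each share rests on 2 single feeder arrays and has no replicate error for them.

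Of 115 further genes in lists of matrix, enzyme, transcription factor, Hox, surface, contractile and growth arrest genes, 52 were higher and 8 lower on feeder cells at day 0, with a median of 0.36. Over all genes 14.7% were called higher and 16.9% lower on that day. At day 7 the counts were 46 and 23, against 20.4% and 20.8% of all genes, so that the number lower was near the share over all genes. At day 17 they were 14 and 18 (13.9% and 13.8% of all genes), near that share in both directions. At day 32 they were 10 and 15 (14.3% and 11.6% of all genes), with the number higher below that share and the number lower near it. Those higher by at least 1 numbered 27, 15, 5 and 1 on the 4 days. The lists were chosen with earlier results known, and 1 of their genes, Snai1, is also in the parietal endoderm list.

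Among 10 other stromal collagens 4 were higher at day 0 and none lower (background 14.7% called higher and 16.9% lower). Col1a2, the partner chain of Col1a1 in type I collagen, was higher by 2.50 at day 0 and by 0.49 at day 7, and Col12a1 by 1.54 and 0.81. Col3a1, the chain of type III collagen, was higher by 1.07 at day 0 but stood at -0.11 at day 7 (adjusted p = 0.63). Of 13 genes for collagen maturation 8 were higher and 1 lower. The procollagen chaperones Serpinh1 and Fkbp10 were higher by 2.41 and 3.60 at day 0. At day 7 Serpinh1 stood at -1.76, called lower, and Fkbp10 at -0.29 (adjusted p = 0.0779). Serpinh1 read 9.82 without feeder cells at day 0 and 14.75 and 14.85 at day 7, so that here too, as for Timp2, the feeder-free level had moved. Loxl1, a lysyl oxidase that cross-links elastin, was higher by 2.10 at day 0, 2.16 at day 7 and 0.79 at day 17.

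Of 9 proteoglycan relatives of Bgn 4 were higher at day 0 and none lower (background 14.7% called higher and 16.9% lower). Asporin (Aspn) read 9.01 on feeder cells at day 0 and 5.95 without, the latter below the background limit of 8.10, so that the difference of 3.06 has no exact size. At day 7 its 7.11 in the feeder arm and 5.77 and 6.06 in the feeder-free arm all lay below that limit. Decorin (Dcn) and lumican (Lum), both common fibroblast markers, read 7.89 and 6.29 on feeder cells at day 0, below the limit of 8.10, with differences of 0.64 and 0.55. Of 14 metalloproteinases and inhibitors 5 were higher and 1 lower. Timp3 was higher by 2.82 at day 0 and stood at -0.43 at day 7, called lower, Timp1 was higher by 0.94, and Mmp14, the membrane enzyme that activates pro-MMP2, stood at -0.71, called lower. Of 14 matricellular and elastic fibre genes 9 were higher and 1 lower. Thbs1, thrombospondin 1, was higher by 4.72 at day 0 and 4.21 at day 7, then by 0.52 at day 17. Sparc, osteonectin, was higher at day 0, at 14.73 on feeder cells against 13.23 without, and stood at -1.15 at day 7. Fbln2, fibulin 2, was higher on all 4 days, by 3.35, 3.00, 1.73 and 0.99.

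Of 16 other mesenchymal transcription factors 6 were higher at day 0 and none lower, and at day 17 3 were higher and 1 lower. Over all genes 14.7% were called higher and 16.9% lower at day 0, and 13.9% and 13.8% at day 17. The number higher at day 17 was thus near the share over all genes. Snai2, a repressor of epithelial genes, was higher by 2.92, 2.58 and 2.08 at days 0, 7 and 17 and stood at 0.19 at day 32 (adjusted p = 0.33). Zeb2, of related function, was higher by 1.43, 1.56, 1.11 and 0.63 on the 4 days. Tbx15 was higher by 1.54, 0.75 and 0.63 up to day 17. Of 11 fibroblast surface genes 6 were higher and 2 lower at day 0. At day 7 10 of them were higher and none lower, and the median went from 0.43 to 0.71. Over all genes 20.4% were called higher and 20.8% lower at day 7. The PDGF receptor Pdgfrb was higher by 1.25 at day 0 and 0.78 at day 7, and the collagen receptor Ddr2 by 1.57, 1.20 and 0.98 at days 0, 7 and 17. Podoplanin (Pdpn), also a fibroblast marker, went the other way at day 0, at 13.73 on feeder cells against 14.95 without (-1.22, called lower). Its difference was 0.38 at day 7, called higher, and -0.58 at day 17, called lower. Of 10 trunk and limb Hox genes 2 were higher at day 0, by under 1, and none lower. At day 7 5 of them were higher and 2 lower, and the median went from 0.13 to 0.32. Of 9 contractile genes 5 were higher and none lower at day 0, and 2 were higher and 3 lower at day 7. Tagln was higher by 1.79 at day 0 and 1.54 at day 7, whereas Cnn1 was higher by 0.81 at day 0 and stood at -0.37 at day 7, called lower. Of 9 growth arrest genes 3 were higher and 3 lower.

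**Figure D3:**
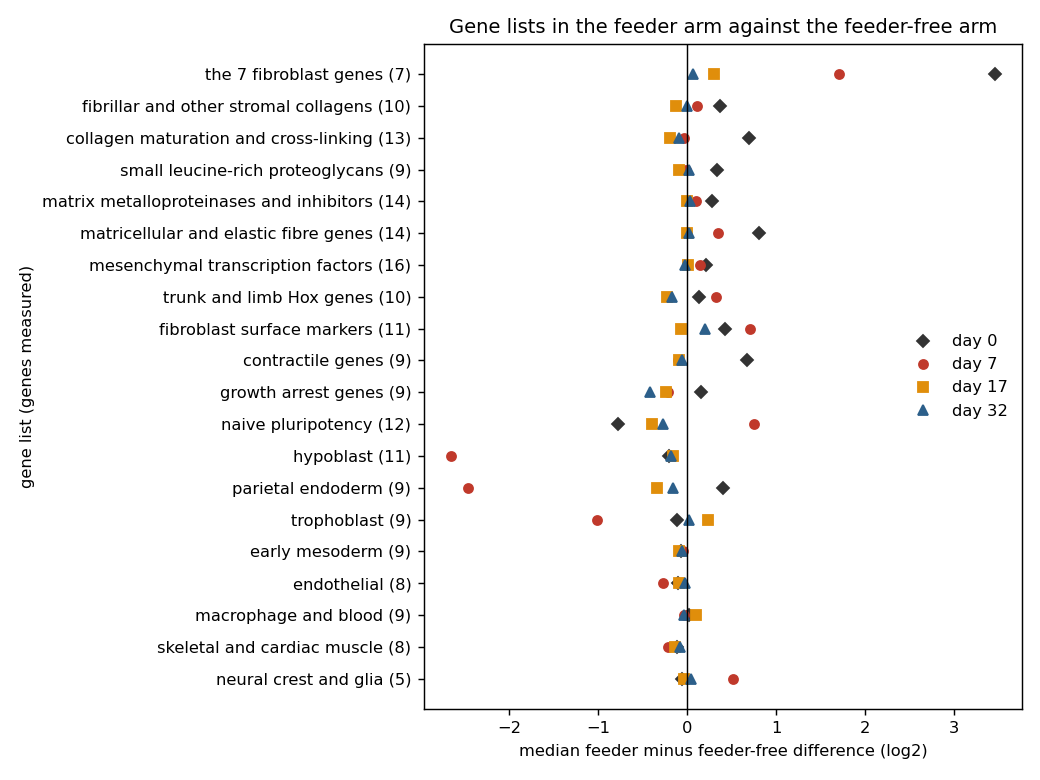
Median feeder minus feeder-free difference (log2) of each gene list on the 4 days, with the number of genes measured in brackets. The 7 genes go from 3.46 at day 0 to 0.06 at day 32, and the hypoblast and parietal endoderm lists are far below 0 at day 7, at -2.65 and -2.46.

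Markers of other cells were read beside these differences. At day 0 the naive pluripotency list was lower on feeder cells in 7 of 12 cases and higher in none, with a median of -0.78. Its mean level was 12.54 on feeder cells and 13.32 without. On that day the parietal endoderm list was higher in 4 of 9 cases and lower in 2, with a median of 0.40. The hypoblast list was higher in 2 of 11 cases and lower in 5, with a median of -0.20. Over all genes 14.7% were called higher and 16.9% lower at day 0. At day 7, when 6 of the 7 fibroblast genes were still higher, 8 of the 12 naive pluripotency genes were higher and 2 lower in the feeder arm. The hypoblast list was then lower in 10 of 11 cases and the parietal endoderm list in 9 of 9. Over all genes 20.4% were higher and 20.8% lower on that day. The mean level of the hypoblast list was then 10.35 in the feeder arm and 12.28 to 12.36 in the feeder-free arm. By day 17 the hypoblast levels were 12.59 against 12.83 to 12.85. The part of the state of the stem cells in the differences of the 7 genes was not tested.

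Genes of other cells were read in the same way, on a day 0 background of 31.5% of all genes called. Of 9 early mesoderm genes at day 0 none was higher and 1 was lower, and of the skeletal and cardiac muscle list 0 of 8 were called. Of 8 endothelial genes 1 was higher and 1 lower, and of 9 macrophage and blood genes 2 were higher, Adgre1 by 0.99 and Fcer1g by 0.94, and 1 was lower. Of 5 genes of neural crest and glia none was called, and of 9 trophoblast genes 1 was higher, Cdx2 by 1.99, and 2 were lower. At day 7, with 41.2% of all genes called, 7 of the 9 trophoblast genes were lower and none higher. On that day 2 of the 8 endothelial genes were higher and 4 lower, 3 of the 8 muscle genes were lower, 3 of the 5 neural crest and glia genes were higher, 3 of the 9 macrophage and blood genes were lower and 1 of the 9 early mesoderm genes was lower. The mean level of the early mesoderm list at day 0 was 8.68 on feeder cells and 8.80 without, that of the muscle list 8.48 and 8.57, and that of the macrophage and blood list 8.11 and 7.96. Their part in the differences of the 7 genes was not tested.

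Over the 8 group means the 7 genes were compared with each other and with all others that spanned at least 1 on the log2 scale. Each of Prrx1, Bgn, Mmp2 and Col1a1 correlated at 0.92 to 0.94 with the mean of the other 6, Postn at 0.87, Twist2 at 0.80 and Timp2 at -0.03. Of 5173 other genes 49 reached at least 0.9 with the mean of the 7. The most alike were Spred1 (0.99), an inhibitor of the Ras pathway, Ptn (0.99), the growth factor pleiotrophin, and Lgals3bp (0.97), a secreted glycoprotein. They were followed by Ccdc80 (0.97), Mfap2 (0.97), Ccnd2 (0.96), which encodes cyclin D2, Igf2 (0.96), an embryonic growth factor, and Mon1a, Lpar4 and Cuedc1 (0.95 each). Igf2 was higher in the feeder arm by 3.34 at day 0 and 1.54 at day 7 and stood at -0.42 at day 17, called lower. Ccnd2 was higher on all 4 days, by 3.85, 2.41, 1.51 and 0.58. The mean of the 7 included Timp2, which rose in the feeder-free arm. The feeder-free values of Ptn (7.33 to 7.87) and Lpar4 (6.79 to 7.36) lay below the background limit of 8.10. Those of Mfap2 and Ccdc80 (7.95 to 8.29) lay about at it. All these correlations are descriptions over 8 points that share arrays.

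**Figure D4:**
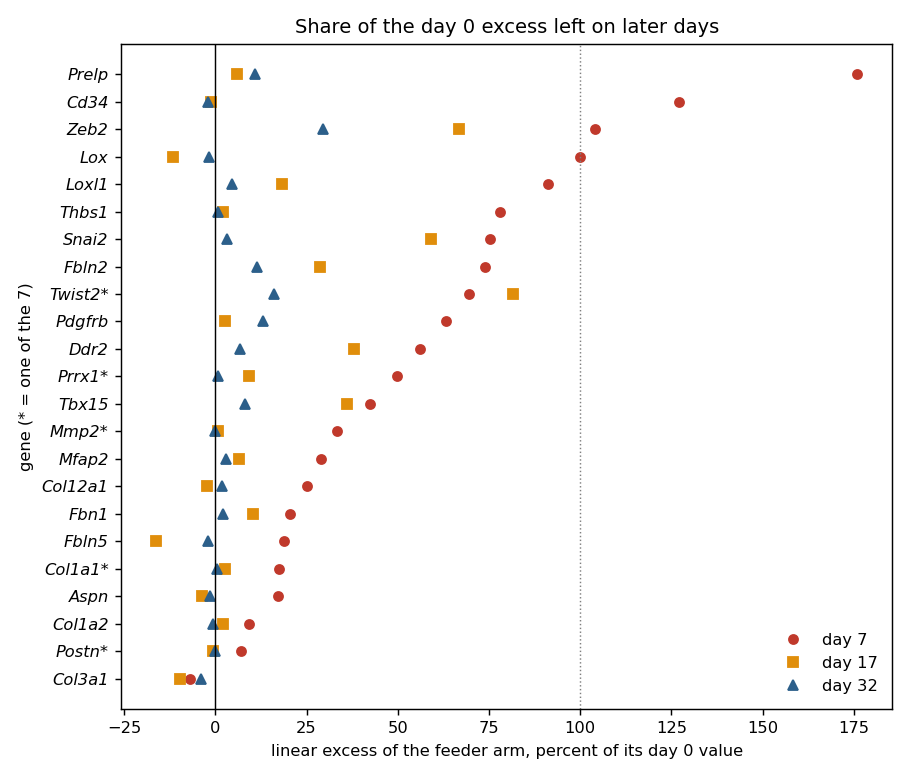
Linear excess of the feeder arm over the feeder-free mean on days 7, 17 and 32, as percent of its day 0 size, for 23 fibroblast genes that were called higher by at least 1 at day 0 and spanned under 1 in the feeder-free arm (Bgn and Timp2 spanned more). Stars mark 5 of the 7 genes. At day 7 the shares run from -6.96% (Col3a1) to 176% (Prelp), and at day 17 Twist2 at 81.7% is highest.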

How the data were processed

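Total RNA of 11 samples was hybridised to Affymetrix Rat Gene 1.0 ST arrays. The values are log2 expression values that the authors deposited, and RMA is named, with no version or options, per the submitters' processing notes. RMA draws low values together. The 11 columns share a median of 8.97 and differ in their upper quartiles (10.84 to 11.04), so the columns do not share 1 distribution. Of 29214 rows 15310 had 1 gene symbol in the platform annotation, 323 had several and 13581 none, the last being unnamed here. Where several rows named a gene, the one highest on average was kept, leaving 14506 genes. RefSeq names came from GRCr8.

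limma 3.58.1 in R 4.3.3 (lmFit, eBayes) fitted 8 group means and left 3 residual degrees of freedom. Benjamini-Hochberg adjusted p-values under 0.05 were called. The calculation was tested on simulated data. Every array there was given the same spread for a gene, so whether the single arrays vary like the pairs could not be checked. Depth is not defined for arrays, and their number limits the precision.

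The 7 genes and the lists were chosen with earlier results of these data known. Named beside them are up to 4 genes per list called at day 0, largest first (or the 2 largest where none was called), and the 10 genes most alike in profile. The text prints part of these. The alternatives tried left out the dimmest 25% of genes, averaged a gene's rows, quantile-normalized the table again, centred arrays on the gene median, or ran eBayes with trend and robust. Others were a replicate block, a minimum of 1 on the log2 scale, and leaving out each feeder-free replicate. Linear shares used 2 to the power of the log2 values. Figures were drawn with matplotlib 3.10.9.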

Additional observations from a re-analysis of the deposited data

Results flagged for a closer look

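Changes that differed between the 2 cultures by the interaction test were looked at again for the 7 genes, as descriptions. From day 0 to day 7 the difference of feeder minus feeder-free moved by -3.28 for Postn, -1.85 for Bgn, -4.58 for Timp2, -1.40 for Mmp2, -1.82 for Col1a1 and -0.78 for Prrx1. From day 7 to day 17 it moved by -2.02 for Postn, -3.22 for Bgn, 1.00 for Timp2, -1.95 for Mmp2, -1.05 for Col1a1 and -1.70 for Prrx1. From day 17 to day 32 it moved by -1.12 for Twist2, the gene whose difference had not passed in either earlier interval. No group held 4 or more arrays, so no array could be compared with its group for distance.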

How the results depend on the processing

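Of 900 values of the 7 genes under the alternatives, 877 kept their side of the threshold, 14 lost it and 9 gained it, and 14 that passed under neither setting changed sign (main values of at most 0.15). With a minimum of 1 on the log2 scale the culture difference counted 1064 genes at day 0, 1690 at day 7, 544 at day 17 (1 of the 7 genes) and 504 at day 32, against 4575, 5978, 4022 and 3752 without it. Its change counted 1614 genes from day 0 to day 7 (3193 without the minimum) and 1264 from day 7 to day 17 (2852). The feeder-free changes counted 1786 (5348), 393 (3458) and 109 (1062) in the 3 intervals, with 0 of the 7 genes in the last 2. At day 32 1 of the 7 genes passed without the dimmest 25% of genes (Twist2), and 1 with a further quantile normalization and with trend and robust (Timp2 in both). For the change of the difference from day 17 to day 32, with 99 genes and 1 of the 7, the counts were 268 and 3 without the dimmest genes, 40 and 0 with quantile normalization, 47 and 0 after centring, and 261 genes with trend and robust. They ran from 62 to 196 genes, and from 0 to 1 of the 7, when 1 feeder-free array was left out. Of these, 62 genes and 0 of the 7 were found when either day 7 array was dropped, 196 genes when the first day 17 array was, and 181 when its partner was. In the feeder-free arm from day 17 to day 32, 2 of the 7 genes passed without the dimmest genes and with trend and robust. Leaving out 1 array gave 0 to 2 of the 7 and 624 to 1099 genes, with 624 genes without the second day 32 array, 0 of the 7 without the first, and 2 of the 7 without the second day 17 array. From day 7 to day 17 it gave 2281 to 3424 genes, the lowest without the first day 7 array. The cause of these shifts was not tested.

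The replicate block gave 204 genes in place of 99 from day 17 to day 32 and changed no call of the 7 genes. The differences between the first and the second replicate correlated across genes at 0.03, -0.20 and -0.10 between days, so the numbers do not pair the arrays. Centring moved the share of higher among called genes from 50.2% to 39.7% at day 17 and from 55.3% to 45.0% at day 32. For the change of the difference it moved from 49.3% to 59.5% to day 7 and from 54.4% to 40.4% to day 17, where it also moved the median of all genes from -0.02 to -0.13. In the feeder-free arm the share moved from 69.1% to 56.1% with quantile normalization (day 7 to day 17), and from 29.4% to 41.6% with it and 43.3% with centring (day 17 to day 32). Leaving out a single array of the feeder arm or of day 0 removes the comparison it belongs to and was not run. Probes not above background could not be marked, since scanner files were not used here.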

Other observations

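Across all genes that were called higher by at least 1 on feeder cells at day 0 and spanned under 1 over the feeder-free group means, limits set after the data were seen, 326 in number, the median share of the linear excess left was 66.8% at day 7, 48.0% at day 17 and 37.0% at day 32. The quartiles were wide, 32.5% to 95.4% at day 7 and 3.89% to 89.2% at day 32. The 23 fibroblast genes among them, 5 of the 7 included, had medians of 49.8%, 2.73% and 1.84%. Within those 23 the genes with the largest shares at day 17 were Twist2 (81.7%), Zeb2 (66.7%), Snai2 (59.2%), Ddr2 (38.1%) and Tbx15 (36.2%), followed by Fbln2 (28.8%), Loxl1 (18.3%), Fbn1 (10.4%) and Prrx1 (9.21%). At day 7 the 4 collagen chains were at 25% (Col12a1), 17.3% (Col1a1), 9.17% (Col1a2) and -6.96% (Col3a1), and Loxl1 and Lox were at 91.2% and 100%. Prelp, a proteoglycan, had 176% of its day 0 excess at day 7 and 5.97% at day 17. The limits were chosen on the day 0 difference, so these shares are descriptions and no test was made of them.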
